A study of Mus musculus with 144 samples.

Results

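The endothelial identity of healthy glomeruli was read here from glomerular endothelial cells (gECs) sorted from BTBR WT mice at 6 weeks of age (8 libraries), set against mesangial cells (8 libraries) and podocytes (8 libraries) of the same strain, genotype and age. A gene counted as higher in gECs when its expected count, the number of reads that the authors' RSEM run assigned to it, was higher than in both other cell types at an adjusted p under 0.05 in edgeR, and when its mean TPM, a transcript abundance corrected for gene length, was also the highest in gECs. Of 16917 genes tested, 3542 met both conditions. These 24 libraries are part of a series of 144. Each cell type had 4 libraries from females and 4 from males. All mice carried a reporter in which Cre, driven by a podocyte promoter, switches cells from Tomato to EGFP. Glomeruli were isolated with magnetic beads and digested at 37 °C, and live CD45- cells were sorted as gECs (PODXL+/EGFP-/CD73-), podocytes (EGFP+/Tomato-/CD73-) or mesangial cells (CD73+/PODXL-/EGFP-). Podxl and Nt5e, which encode PODXL and CD73, were therefore set by the gates and are no result. Later ages were used as further readings: gECs of BTBR ob/ob mice, which lack leptin and become obese and diabetic, and of BTBR WT mice at 12 weeks (8 libraries each) and at 18 weeks (7 libraries each), with WT mesangial cells and podocytes in the same numbers.

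Glomerular capillaries are lined by a flat endothelium pierced by open fenestrae, which lies on a basement membrane shared with the podocytes and, toward the centre of the tuft, directly on the mesangium. Podocytes release VEGF-A, which acts on the VEGF receptors of the endothelium, and the endothelium in turn releases PDGF-B, which recruits mesangial cells. Transcription factors of the ETS, SOX, KLF and GATA families hold endothelial genes switched on, and ETS factors recognise a GGAA core in the promoters and enhancers of many of these genes.

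The 8 gEC libraries held 22.29 to 34.96 M counts (M for mega), mesangial libraries 24.52 to 33.36 M and podocyte libraries 22.49 to 29.42 M. Markers of other cells were low in gECs but not absent. The 14 podocyte markers, which include the gate gene Podxl, summed to between 1979 and 4260 TPM in gECs, against 462 to 651 TPM in mesangial cells and 25480 to 30155 TPM in podocytes. A pair of male gEC libraries, 1 and 2, stood apart with sums of 3426 and 4260 TPM. Mesangial markers summed to between 77.5 and 158 TPM in gECs and 11176 to 13381 TPM in mesangial cells, and the mesangial receptor gene Pdgfrb was at 2.76 to 8.56 TPM in gECs. Immune markers summed to between 13.5 and 30.6 TPM in gECs, where the leukocyte gene Ptprc lay at 0.01 to 1.92 TPM. Globin and other erythroid genes summed to between 29.4 and 302 TPM in gECs, at most 16.2 TPM in mesangial cells and at most 13.6 TPM in podocytes, and all 4 erythroid genes tested are among the 3542. Without male libraries 1 and 2, 3652 genes were higher in gECs than in both other cell types, and 3422 of the 3542 stayed. Bulk RNA cannot tell fewer cells of a type from less RNA per cell, and the labels do not say whether libraries came from separate animals, so the p values measure the spread between these libraries.

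All 4 marker genes given for the glomerular endothelium were highest in gECs, with no overlap between cell types, so the data bear out the label. Emcn, which encodes the sialomucin endomucin of the endothelial surface (GRCm38 chr3:137341067-137432185, plus strand), lay at 2366 TPM in the lowest gEC library, 2866 at the median and 3060 in the highest. Mesangial cells had 91.8 to 146 TPM of Emcn and podocytes 0.43 to 4.40 TPM. The log2 fold change was 4.54 ± 0.19 (SE) over mesangial cells (adjusted p = 5.2e-17, edgeR) and 10.97 ± 0.26 over podocytes (adjusted p = 3.3e-22, edgeR). Kdr encodes the main signalling receptor for VEGF-A (chr5:75932827-75978458, minus strand). It lay at 1339, 1823 and 1954 TPM (lowest, median, highest) in gECs, against 2.00 to 13.7 TPM in mesangial cells and 0.14 to 0.98 TPM in podocytes. The log2 fold changes of Kdr were 8.15 ± 0.44 over mesangial cells (adjusted p = 1.2e-14, edgeR) and 11.60 ± 0.51 over podocytes (adjusted p = 1.2e-16, edgeR).

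Flt1, which encodes a VEGF receptor that also acts as a decoy (chr5:147561604-147726011, minus strand), was at 470, 651 and 731 TPM in gECs, against 21.1 to 31.8 TPM in mesangial cells and 0.05 to 0.86 TPM in podocytes. Its log2 fold changes were 4.45 ± 0.20 and 10.73 ± 0.27 over mesangial cells and podocytes. Ehd3, which encodes an ATPase of endocytic recycling (chr17:73804134-73832094, plus strand), was at 1469, 1554 and 1991 TPM in gECs. It was the marker that separated gECs least from mesangial cells, which had 349 to 450 TPM, a log2 fold change of 2.07 ± 0.08, while podocytes had 10.9 to 13.3 TPM (7.08 ± 0.10). The 4 markers thus differed in how much of the gEC level was seen in mesangial cells, from 23.5% for Ehd3 to 0.35% for Kdr. Emcn, Kdr and Flt1 were lowest in male gEC libraries 1 and 2, those with the most podocyte marker RNA. Whether that RNA lowered them was not tested. In whole glomeruli from 3 unperfused kidneys of another strain, prepared with another kit, the same genes were listed at 121.7 to 327 TPM (Emcn), 40.0 to 90.6 TPM (Kdr), 12.5 to 25.8 TPM (Flt1) and 63.2 to 164 TPM (Ehd3).

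**Figure D1:**
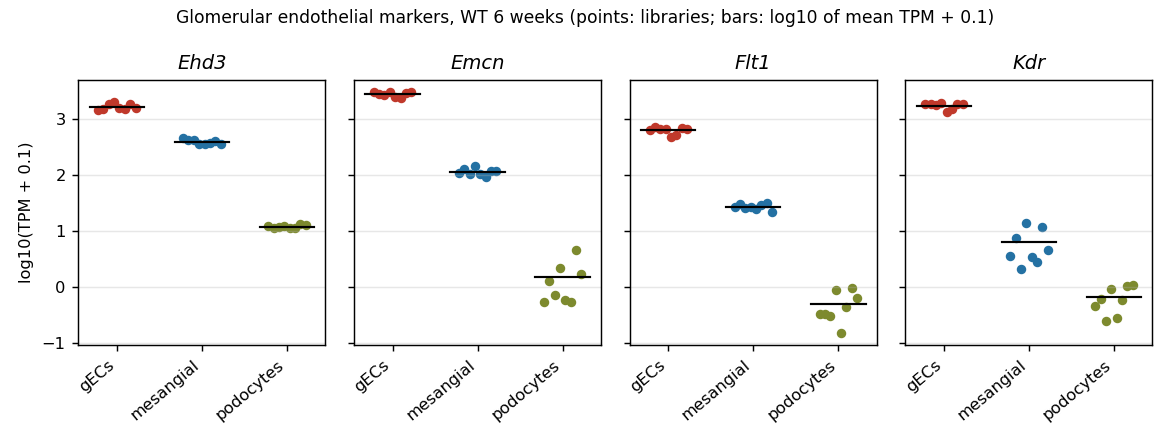
TPM on a log axis of Ehd3, Emcn, Flt1 and Kdr in each of the 8 gEC, 8 mesangial and 8 podocyte libraries of WT mice at 6 weeks, with 1 point a library. All gEC points lie above all others for each gene; mesangial cells hold Ehd3 at 349 to 450 TPM but Kdr at 2.00 to 13.7 TPM.

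Promoters of the 4 markers and of another pair of endothelial genes are shown, to set side by side the sequences next to the starts of genes that share this cell type. Each is the 250 bases upstream of the RefSeq gene start on GRCm38.p6, read 5′ to 3′ on the gene's own strand. Gene spans in the text come from another annotation, GENCODE M21, in which Ehd3 and Egfl7 start further upstream, so that the windows of these 2 genes lie inside their GENCODE spans. Capitals mark AGGAAG or its reverse complement CTTCCT, letters that hold the GGAA core read by ETS factors. Egfl7, which encodes a protein secreted by endothelium, and Robo4, which encodes an endothelial guidance receptor, are added from the lists described further on. By strand, the windows are Emcn at chr3:137340828-137341077 (plus), Flt1 at chr5:147726012-147726261 (minus), Kdr at chr5:75978456-75978705 (minus), Ehd3 at chr17:73804591-73804840 (plus), Egfl7 at chr2:26580833-26581082 (plus) and Robo4 at chr9:37401722-37401971 (plus).
Emcn: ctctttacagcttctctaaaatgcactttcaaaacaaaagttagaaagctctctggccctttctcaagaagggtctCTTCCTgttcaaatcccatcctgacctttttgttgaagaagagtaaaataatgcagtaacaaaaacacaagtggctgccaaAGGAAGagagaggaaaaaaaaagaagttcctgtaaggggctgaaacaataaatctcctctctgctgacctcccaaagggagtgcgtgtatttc
Flt1: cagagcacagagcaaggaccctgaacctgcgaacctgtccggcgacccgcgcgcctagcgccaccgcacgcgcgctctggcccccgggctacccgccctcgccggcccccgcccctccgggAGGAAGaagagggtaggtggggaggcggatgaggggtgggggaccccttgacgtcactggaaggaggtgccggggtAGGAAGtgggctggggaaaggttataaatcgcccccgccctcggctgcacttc
Kdr: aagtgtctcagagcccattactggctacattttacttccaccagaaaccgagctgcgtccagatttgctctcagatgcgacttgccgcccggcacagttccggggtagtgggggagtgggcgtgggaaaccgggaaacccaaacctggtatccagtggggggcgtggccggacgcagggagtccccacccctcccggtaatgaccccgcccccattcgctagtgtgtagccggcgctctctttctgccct
Ehd3: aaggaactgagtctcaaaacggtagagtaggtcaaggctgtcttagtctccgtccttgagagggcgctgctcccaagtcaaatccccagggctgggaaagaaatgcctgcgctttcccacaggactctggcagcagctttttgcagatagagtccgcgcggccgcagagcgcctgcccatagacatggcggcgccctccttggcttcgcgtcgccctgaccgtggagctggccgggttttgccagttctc
Egfl7: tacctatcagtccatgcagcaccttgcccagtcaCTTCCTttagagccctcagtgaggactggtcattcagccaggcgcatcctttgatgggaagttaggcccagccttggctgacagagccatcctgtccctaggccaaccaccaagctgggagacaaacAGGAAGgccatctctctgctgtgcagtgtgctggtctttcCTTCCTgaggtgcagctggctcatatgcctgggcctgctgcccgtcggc
Robo4: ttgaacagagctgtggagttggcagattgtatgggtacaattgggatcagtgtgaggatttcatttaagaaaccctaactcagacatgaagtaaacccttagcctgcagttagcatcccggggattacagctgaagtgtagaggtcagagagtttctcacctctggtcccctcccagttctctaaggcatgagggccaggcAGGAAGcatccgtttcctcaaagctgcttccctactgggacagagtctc
Emcn and Flt1 each hold these letters at 2 places, Egfl7 at 3 and Robo4 at 1, and the windows of Kdr and Ehd3 hold none. On either strand AGGAAG was found in 37.3% of the 451 promoters matched by symbol among the genes at least 8-fold higher in gECs, in 30.5% of 2310 among all genes higher in gECs, in 27.8% of 10742 among all genes tested and in 29.2% of all 27025 promoters. The KLF letters CCACACCC stood in 3.99% of promoters of the 8-fold genes and 3.41% of those of all tested genes, and the GATA letters AGATAA in 5.99% and 5.73%. The SOX letters CCATTGT stood in 2.88% of promoters of the 8-fold genes and 1.73% of those of all tested genes, and the FOX letters TGTTTAC in 2.66% and 2.05%. These shares describe letters in a short window and were not tested.

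Against mesangial cells, 6272 genes were higher in gECs (37.1% of those tested) and 5290 lower (31.3%). Against podocytes, 6181 were higher (36.5%) and 6420 lower (37.9%). Which direction was the more frequent against podocytes depended on the processing, since 6726 genes were higher and 5834 lower with RLE factors, 6539 and 6005 with total counts only, 6814 and 5900 with DESeq2, and 8071 and 6479 with no filter on low counts. The 3542 genes higher than in both make 20.9% of the genes tested, the 1968 of them with at least a 2-fold difference from each make 11.6%, and the 710 with at least an 8-fold difference make 4.2%. The last count was 366 with limma on log2(TPM + 1) and 1181 with no filter on low counts. Genes lower in gECs than in both numbered 2982 (17.6%), with 800 (4.73%) at 2-fold and 109 (0.644%) at 8-fold. At the 2-fold limit the smaller log2 fold change was 1.0001 for Lxn and 1.005 for Bin1 just inside and 0.9986 for Prdm4 and 0.9984 for Cmtm6 just outside. At the 8-fold limit it was 3.010 for Spns2 and 3.012 for Cd84 inside and 2.998 for Fam20c and 2.995 for Pcdhb12 outside.

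The 3542 genes carried 26.8 to 33.5% of all TPM in gEC libraries, against 11.7 to 14.6% in mesangial libraries and 9.55 to 11.3% in podocyte libraries. The 710 genes at 8-fold carried 5.11 to 6.58% in gECs, 0.17 to 0.25% in mesangial cells and 0.0555 to 0.0841% in podocytes. In gECs 40 of the 3542 genes averaged at least 1000 TPM, 655 at least 100 TPM and 2270 at least 10 TPM. Every gEC library lay above every other library for 2137 of the 3542 (60.3%). Over all genes tested 2140 did so (12.6%), and the difference in share follows from choosing the genes in these same libraries. The levels lay nearer to mesangial cells than to podocytes for 2410 of the 3542 genes (68.0%) and for 539 of the 710 (75.9%). These counts rest on the fold changes that chose the genes, and the same share over all genes tested was not taken. Of all genes tested, 2631 were higher in gECs than in podocytes but not than in mesangial cells, and 2722 the other way round. No read of a gene was assigned in any of the 8 podocyte libraries for 113 of the 710 and in any of the 8 mesangial libraries for 26. Over all 16917 genes tested these counts were 249 and 86. Such genes passed the filter on low counts only through the cell types in which they were read.

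**Figure D2:**
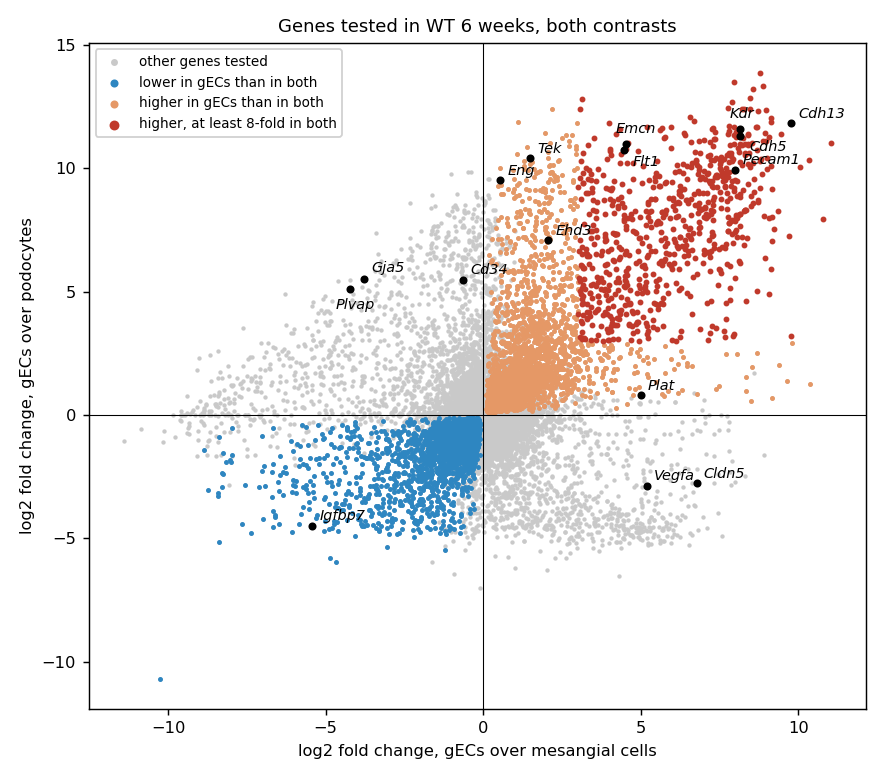
Log2 fold change of gECs over mesangial cells (horizontal) and over podocytes (vertical) for the genes tested at 6 weeks, with the genes higher or lower in gECs than in both cell types in colour. Kdr lies at 8.15 and 11.60 and Ehd3 at 2.07 and 7.08 while Igfbp7, lower than in both, lies at -5.43 and -4.48.

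Among genes of at least 10 TPM whose libraries did not overlap, Cdh13 had the largest smaller difference. It encodes T-cadherin, a cadherin held in the membrane by a lipid anchor that binds adiponectin. Cdh13 was at 14.6, 19.5 and 30.6 TPM (lowest, median, highest) in gECs, against 0 to 0.38 TPM in mesangial cells and 0 to 0.13 TPM in podocytes, with log2 fold changes of 9.77 ± 0.25 and 11.82 ± 0.30. Most of the 20 genes picked by this size were of modest level. Their median gEC level lay between 11.2 TPM (Gimap1os) and 252 TPM (Palmd), and their difference from mesangial cells between 8.46 (Klk8) and 9.77 on the log2 scale. Palmd, which encodes palmdelphin, was at 203 to 315 TPM in gECs and at most 1.46 TPM elsewhere. Alpl, the tissue-nonspecific alkaline phosphatase, was close to it with 210 to 316 TPM in gECs and at most 1.44 TPM elsewhere.

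Several of the 20 act at the cell surface. P2ry1, the receptor for ADP, was at 85.0 to 130 TPM in gECs and at most 0.88 TPM elsewhere. Sigirr, which encodes an inhibitory member of the interleukin-1 receptor family, was at 14.8 to 22.5 TPM in gECs, at most 0.08 TPM in mesangial cells and without a read in podocytes, a difference of at least 10.42 on the log2 scale when the podocyte group is set to a floor of 3 counts. The lectin genes Clec1b and Clec9a were at 20.1 to 31.9 and 23.1 to 35.0 TPM in gECs. Their spans overlap on the same strand, so their reads cannot be fully told apart. Clec1b is best known from platelets. Of 4 platelet markers tested 3 were higher in gECs than in both other cell types, namely Itga2b (4.80 to 10.96 TPM in gECs), Gp9 (0.82 to 5.61 TPM) and Gp1bb (2.53 to 9.84 TPM), while Pf4 and Ppbp were at 0 TPM in the median gEC library. The 5 markers listed summed to 13.0 to 19.3 TPM in gECs, 7.20 to 11.6 TPM in mesangial cells and 1.18 to 3.55 TPM in podocytes, and the part of platelet RNA in the Clec1b level was not tested.

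Transcription factors among the 20 were Gata5, a GATA factor of endothelium and endocardium, and Tal1, a factor shared by blood and endothelial lineages. Gata5 was at 157 to 190 TPM in gECs and at most 1.11 TPM elsewhere, with log2 fold changes of 8.67 ± 0.31 and 10.74 ± 0.37. Tal1 was at 20.4 to 31.1 TPM, against at most 0.90 TPM elsewhere. The remaining members were Pik3r6 (a regulatory subunit of phosphoinositide 3-kinase gamma), Mpped2, Lypd6, Akr1c14, Slc26a10, Mmp28, Eva1a, Myrip, Klk8 and the GTPase gene Gimap3, which had 76.7 to 130 TPM in gECs and at most 0.66 TPM elsewhere. Among the 20, Cdh13, P2ry1, Slc26a10, Gata5, Mmp28, Eva1a, Gimap1os, Palmd and Klk8 overlap a gene on the opposite strand. RSEM was run with its default settings, which do not use strand, so reads of these genes and their partners cannot be told apart.

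The most abundant genes at 8-fold were of other kinds. Emcn and Kdr were joined by the shear-responsive transcription factor Klf4 at 1145, 2148 and 2376 TPM in gECs (lowest, median, highest), against 96.4 to 225 TPM in mesangial cells and 42.3 to 154 TPM in podocytes, with log2 fold changes of 3.60 ± 0.23 and 4.26 ± 0.24. The kinase gene Sgk1 was at 1349, 2136 and 2519 TPM, and its difference from mesangial cells was at the limit (3.02 ± 0.23). Pecam1, the adhesion molecule CD31 of endothelial junctions, was at 1038, 1183 and 1304 TPM, against 2.07 to 9.29 TPM in mesangial cells and 0.58 to 2.54 TPM in podocytes. Egfl7 (1122 to 1639 TPM), Plk2 (919 to 1561), Ppap2a (992 to 1366), Cd24a (999 to 1507) and Ly6e (908 to 1292) completed the 10. Ppap2a, which encodes a lipid phosphate phosphatase, had 27.6 to 55.8 TPM in mesangial cells and 35.1 to 57.9 TPM in podocytes, whereas Cd24a, Egfl7 and Ly6e had at most 34.8 TPM in mesangial cells and at most 6.94 TPM in podocytes.

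The gene lists from here on were chosen with earlier results of these data known, so their shares are not independent of these data. Of 20 pan-endothelial genes, 17 were higher in gECs than in both other cell types, 11 of them at least 8-fold, and none was lower than both. Their median log2 fold change was 5.33 over mesangial cells (0.09 over all genes tested) and 9.38 over podocytes (-0.02 over all genes tested). Against mesangial cells the list split, as the mean TPM of 9 members there was under 1% of that in gECs and that of another 9 was over 10%. In the first set mesangial cells were at 0.393% of the gEC level for the adhesion gene Pecam1, 0.354% for Cdh5 (VE-cadherin), 0.343% for Tie1, 0.346% for Robo4, 0.355% for Mmrn2 and 0.471% for Nos3. In the second set were Tek, the angiopoietin receptor, at 34.9%, the adhesion genes Esam at 34.8% and Icam2 at 31.1%, and Clec14a at 71.3%. Cdh5 had 881 to 1132 TPM in gECs, 1.18 to 8.89 TPM in mesangial cells and 0.05 to 1.19 TPM in podocytes. Tek had 323 to 451 TPM in gECs, 112 to 155 TPM in mesangial cells and 0.04 to 0.55 TPM in podocytes. In podocytes 17 of the 20 were under 1% of the gEC level.

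Members that missed the rule did so for different reasons. Eng, which encodes the TGF-beta co-receptor endoglin, was at 1044 to 1663 TPM in gECs and 850 to 1042 TPM in mesangial cells. Its ranges nearly touched, and the log2 fold change of 0.53 ± 0.25 had an adjusted p of 0.065 in edgeR. Cd34 was lower in gECs (298 to 506 TPM) than in mesangial cells (513 to 700 TPM) at -0.63 ± 0.15 (adjusted p = 0.00069, edgeR). Cldn5, the tight-junction claudin of many endothelia, was at 46.8 to 71.3 TPM in gECs and 371 to 440 TPM in podocytes, a log2 fold change of -2.77 ± 0.17.

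**Figure D3:**
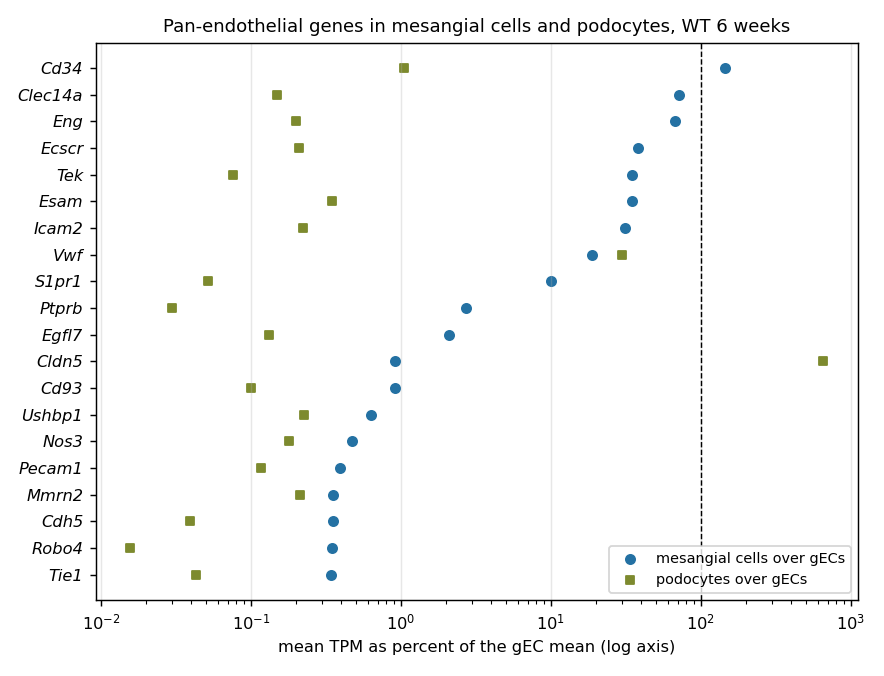
Mean TPM in mesangial cells and in podocytes as a percentage of the mean in gECs, on a log axis, for the 20 pan-endothelial genes (n = 8 libraries each). In mesangial cells 9 genes lie under 1% and 9 over 10%, and Cldn5 is the member with more in podocytes than in gECs.

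Of 10 genes listed for the glomerular endothelium 9 were higher in gECs than in both other cell types, 6 of them at 8-fold. Flt1, which is on this list, serves in the paper as an endothelial marker without reference to a bed. No endothelium from outside the glomerulus was compared, so the list does not set this bed apart. Beside the 4 markers the 9 include Plat, tissue plasminogen activator. It varied most among the abundant members with 1565, 2549 and 3649 TPM in gECs (lowest, median, highest). Podocytes also had 1285 to 1485 TPM of Plat, so that the difference from them was small (log2 fold change 0.81 ± 0.15, adjusted p = 2.4e-05, edgeR), whereas mesangial cells had 61.8 to 129 TPM. Pi16 was at 610 to 804 TPM in gECs and at most 6.90 TPM elsewhere. The T-box factor gene Tbx3 was at 348 to 404 TPM in gECs and 131 to 184 TPM in mesangial cells. Lpl, lipoprotein lipase, missed the rule with 29.2 to 45.0 TPM in gECs and 154 to 358 TPM in mesangial cells.

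Markers of other endothelial beds gave a mixed picture, with 6 of the 12 tested higher in gECs than in both, 1 at 8-fold, and 1 lower. Plvap, which encodes the diaphragm protein of fenestrae outside the mature glomerulus, was at 16.8 to 29.7 TPM in gECs, 362 to 550 TPM in mesangial cells and 0.17 to 2.13 TPM in podocytes. Gja5, the connexin of arterial endothelium and of juxtaglomerular cells, was at 39.0 to 67.8 TPM in gECs and 607 to 803 TPM in mesangial cells. Both were thus lower in gECs than in mesangial cells, with log2 fold changes of -4.23 ± 0.21 and -3.79 ± 0.24. Fbln2, an arterial marker, was at 27.2 to 69.3 TPM in gECs and at most 2.13 TPM elsewhere. The lymphatic gene Lyve1 was at 0.07 to 0.65 TPM in gECs. The arterial and venous partners Efnb2 (545 to 769 TPM) and Ephb4 (235 to 281 TPM) were both higher in gECs than in the other cell types.

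Receptors and ligands of the VEGF and angiopoietin system were divided between the cell types. Of 10 receptors and co-receptors 9 were higher in gECs than in both (median log2 fold change 4.82 over mesangial cells and 10.45 over podocytes), and of 11 ligands tested 1 was, the lowly expressed Apln at 0.88 to 3.15 TPM. Vegfa had 373, 452 and 682 TPM in gECs (lowest, median, highest), against 4.85 to 20.4 TPM in mesangial cells and 2877 to 3798 TPM in podocytes. Male gEC libraries 1 and 2 had the most Vegfa among gECs (497 and 682 TPM), and the part of podocyte RNA in its gEC level was not tested. Angpt2, which encodes a ligand of Tek, was at 2.88 to 5.43 TPM in gECs, against 163 to 210 TPM in mesangial cells. Vegfc, the ligand of Flt4, was also lower in gECs (3.73 to 10.1 TPM, against 28.7 to 52.2 TPM in mesangial cells), while Flt4 itself was at 62.6 to 83.6 TPM in gECs and at most 0.75 TPM elsewhere. The co-receptor genes Nrp1 and Plxnd1 were only slightly higher in gECs than in mesangial cells (0.47 ± 0.06 and 0.19 ± 0.06), and Nrp2 did not pass (-0.17 ± 0.10, adjusted p = 0.16, edgeR).

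Of 31 endothelial transcription factors tested, 24 were higher in gECs than in both, 15 at 8-fold, and 2 were lower (Foxc1 and Nr2f2). The SOXF genes Sox17 and Sox18, which act in arterial and lymphatic endothelium, had 215 to 347 and 295 to 402 TPM in gECs and at most 6.14 TPM elsewhere. Klf2, like Klf4 induced by laminar flow, was at 1259 to 2300 TPM in gECs, 412 to 754 TPM in mesangial cells and 105 to 296 TPM in podocytes. Within the ETS family the members differed: Erg was at 189 to 240 TPM in gECs and at most 4.71 TPM in mesangial cells, Fli1 at 130 to 192 TPM in gECs and 51.7 to 65.8 TPM in mesangial cells, and Ets1 was lower in gECs (289 to 434 TPM) than in mesangial cells (573 to 751 TPM). Nr2f2, which encodes the venous factor COUP-TFII, was at 22.4 to 35.6 TPM in gECs and 300 to 383 TPM in mesangial cells. Epas1, which encodes HIF-2alpha, was at 1191 to 1539 TPM in gECs and 1952 to 2338 TPM in mesangial cells.

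In the Notch pathway 10 of 18 genes were higher in gECs than in both, 5 at 8-fold, and 3 lower. Dll4, the ligand of arterial and tip cells, was at 249, 418 and 629 TPM in gECs (lowest, median, highest), against 8.97 to 22.8 TPM in mesangial cells and at most 0.56 TPM in podocytes. The receptor genes Notch4 (140 to 189 TPM) and Notch1 (202 to 294 TPM) and the target gene Hey1 (40.7 to 60.7 TPM) were highest in gECs too, whereas Notch1 still had 61.7 to 89.7 TPM in mesangial cells. Of 31 TGF-beta and BMP genes 13 were higher and 3 lower. Among these Bmp6 (84.2 to 172 TPM in gECs, at most 0.88 TPM elsewhere), the receptor gene Acvrl1 (264 to 364 TPM), the inhibitory Smad6 (180 to 275 TPM) and the BMP target Id1 (252 to 465 TPM) were all highest in gECs.

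Of 23 genes of vascular tone tested 10 were higher, 8 of them at 8-fold, and 1 lower. Ece1, the enzyme that cleaves pro-endothelin, was at 541 to 704 TPM in gECs and at most 19.8 TPM elsewhere, and the endothelin B receptor Ednrb at 121 to 256 TPM and at most 1.64 TPM elsewhere. Edn1, the precursor itself, did not differ detectably from mesangial cells (22.2 to 41.0 TPM in gECs, 19.2 to 35.8 TPM in mesangial cells, log2 fold change 0.11 ± 0.19). Calcrl and Ramp2, which together form an adrenomedullin receptor, were at 484 to 704 and 432 to 520 TPM in gECs. Nos3, endothelial nitric oxide synthase, was at 91.1 to 125 TPM and at most 1.14 TPM elsewhere.

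Anticoagulant and fibrinolytic genes were higher in gECs than in both for 11 of 18, and 2 were lower. Thbd, which encodes thrombomodulin, was at 173 to 277 TPM in gECs and at most 2.25 TPM elsewhere, and F8, the gene of coagulation factor VIII, at 113 to 135 TPM and at most 1.56 TPM elsewhere. The urokinase system was split: the receptor Plaur was at 107 to 300 TPM in gECs and at most 2.72 TPM elsewhere, and the protease Plau at 0.54 to 2.86 TPM in gECs and 216 to 315 TPM in mesangial cells. Lipid and solute transport counted 11 of 19 higher and 3 lower. The fatty acid genes Fabp4 (186 to 375 TPM) and Cd36 (189 to 282 TPM), the lipase anchor Gpihbp1 (81.7 to 141 TPM) and the water channel Aqp1 (90.4 to 148 TPM) were each at most 4.45 TPM elsewhere.

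Of 25 junction and adhesion genes 15 were higher in gECs than in both and 1 lower, and of 19 genes of caveolae, fenestrae and endocytosis 8 were higher and 5 lower. Dysf, the membrane-repair protein dysferlin, was at 458 to 646 TPM in gECs and at most 6.18 TPM elsewhere. Cav1 was at 176 to 239 TPM in gECs and 7.72 to 13.6 TPM in mesangial cells, while its partner Cav2 differed little between them (134 to 204 TPM in gECs, 128 to 163 TPM in mesangial cells, 0.16 ± 0.09, adjusted p = 0.10, edgeR).

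Glycocalyx and basement membrane lists held about the same share of higher genes as all genes tested (20.9%). Of 22 glycocalyx genes 4 were higher in gECs than in both and 6 lower, and of 23 basement membrane genes 5 were higher and none lower. Among the higher genes were Hspg2 (perlecan), Col15a1, Nid2 and Lama3. Col15a1 was at 181 to 287 TPM in gECs and at most 3.27 TPM elsewhere, with log2 fold changes of 8.39 ± 0.49 and 10.96 ± 0.58. The collagen IV chains were led by the other cell types. Col4a1 had 454 to 724 TPM in gECs, against 1557 to 2888 TPM in mesangial cells, and Col4a3, a chain of the mature glomerular membrane, had 27.2 to 170 TPM in gECs and 1444 to 2112 TPM in podocytes. Of 15 integrins 4 were higher and 1 lower, with Itga6, a laminin receptor chain, at 179 to 244 TPM in gECs and at most 14.1 TPM elsewhere.

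Among 24 signals that endothelium is known to send, 12 were higher in gECs than in both and 2 lower. Pdgfb was at 124 to 176 TPM in gECs, 42.3 to 70.1 TPM in mesangial cells and 6.16 to 9.81 TPM in podocytes. Kitl, stem cell factor, was at 122 to 196 TPM and at most 4.96 TPM elsewhere, and the growth factors Csf1 and Hbegf at 253 to 551 and 219 to 423 TPM. Of 19 MHC and antigen presentation genes 12 were higher and none lower, 1 of them at 8-fold. B2m was at 1104 to 1705 TPM in gECs, against 564 to 731 TPM in mesangial cells and 140 to 321 TPM in podocytes. Of 24 interferon response genes 15 were higher and 2 lower. Irf1 varied most, at 187, 585 and 1133 TPM in gECs (lowest, median, highest), so that its gEC libraries overlapped the mesangial ones (82.4 to 220 TPM).

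Lists of stress, actin and glucose genes were read as well. Of 24 immediate early genes 9 were higher and 2 lower, with a median log2 fold change of 0.32 over mesangial cells and 0.72 over podocytes. Jun was at 3517 to 5308 TPM in gECs, 3189 to 4413 TPM in mesangial cells and 1875 to 4140 TPM in podocytes, so the libraries overlapped. These genes respond to digestion at 37 °C, which all 3 cell types went through, and its part in their levels was not tested. Of 21 targets of the actin-regulated factors MRTF and SRF 2 were higher and 4 lower than in both. Against mesangial cells alone 16 of the 21 were lower in gECs (median log2 fold change -1.54). Of 16 glycolysis genes 3 were higher and 7 lower, among them the glucose transporter Slc2a1 at 2.60 to 4.66 TPM in gECs, 10.9 to 17.3 TPM in mesangial cells and 12.6 to 17.7 TPM in podocytes.

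**Figure D4:**
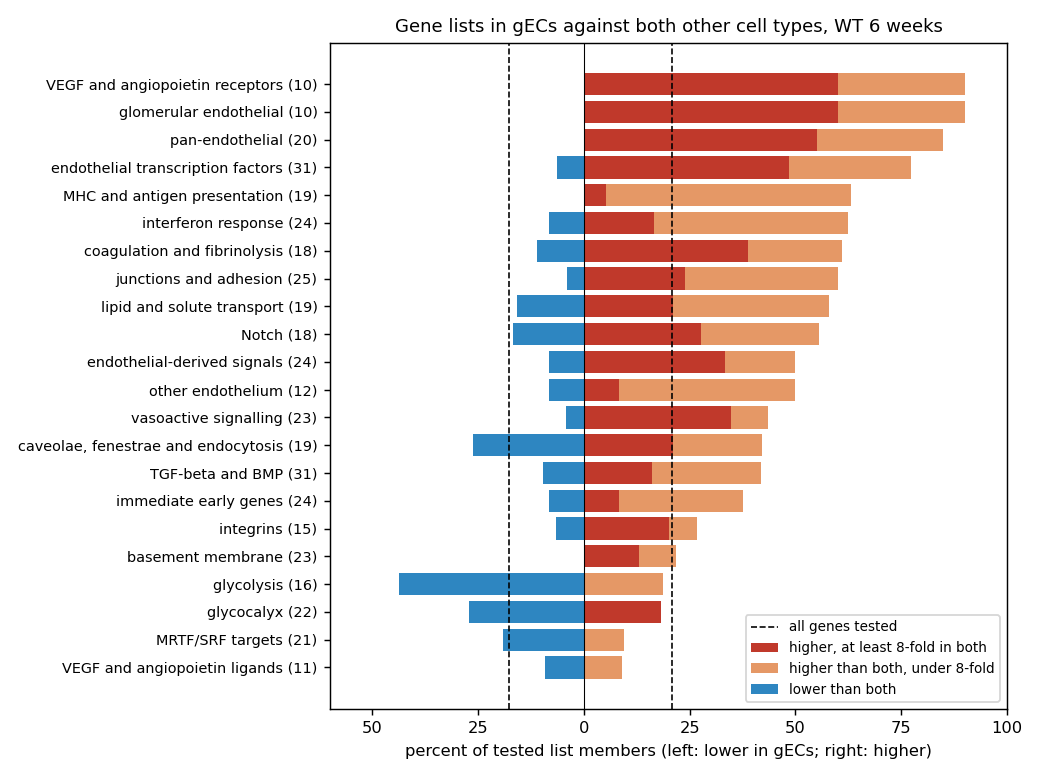
Share of the tested members of each gene list that were higher or lower in gECs than in both other cell types at 6 weeks, beside the same shares over all 16917 genes tested (20.9% and 17.6%). The pan-endothelial list has 17 of 20 members higher and none lower, and the glycolysis list 3 of 16 higher and 7 lower. The lists were chosen with earlier results of these data known.

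The 10 genes named for the largest falls in gECs were high in both mesangial cells and podocytes. Daam2, a formin-homology protein of Wnt signalling, was at 3.22, 10.2 and 31.7 TPM in gECs (lowest, median, highest), against 243 to 326 TPM in mesangial cells and 295 to 322 TPM in podocytes, with log2 fold changes of -4.60 ± 0.34 and -4.71 ± 0.35. Igfbp7 was at 52.1 to 355 TPM in gECs, 5622 to 8011 TPM in mesangial cells and 3141 to 4122 TPM in podocytes. Axl, the receptor tyrosine kinase for Gas6, was at 6.89 to 30.1 TPM in gECs, 460 to 651 TPM in mesangial cells and 192 to 301 TPM in podocytes. Fign, Gpc3, Cadm4, Foxs1, Arhgef17, Fgfr2 and Gsta4 made up the 10. Daam2 and Igfbp7 were highest in male gEC libraries 1 and 2, the pair with the most podocyte marker RNA, whose part in these levels was not tested.

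The genes chosen at 6 weeks were then read in WT libraries of the later ages, which the choice had not used. At 12 weeks 2781 of the 3504 still tested (79.4%) were again higher in gECs than in both, against 18.1% of all genes tested at that age and 2.14% of those not chosen at 6 weeks. At 18 weeks the count was 3119 of 3428 (91.0%), against 23% of all genes tested and 4.67% of those not chosen. None of the 3542 was lower than both at either age. Of the genes at 8-fold, 685 of 687 (99.7%) at 12 weeks and 662 of 663 (99.8%) at 18 weeks were higher again. All 4 markers and all genes named above for size or level were higher again at both ages.

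Some list members did not repeat at every age. Clec14a and Plxnd1, both close to the mesangial level at 6 weeks, did not pass at 12 weeks and passed at 18 weeks. The immediate early genes Jun, Atf3, Fosb and Egr1 did the same. Eng passed at both later ages. Of the pan-endothelial list 17 members were higher in gECs than in both at 12 weeks and 18 at 18 weeks, of the transcription factors 23 and 24, and of the glomerular list 9 and 9. Of the 24 immediate early genes, of which 9 were higher at 6 weeks, 5 were higher at 12 weeks and 18 at 18 weeks. Total counts at 18 weeks, 15.09 to 20.48 M over the 3 cell types, were lower than at 6 weeks.

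Diabetes was read as ob/ob against WT gECs at 12 and at 18 weeks, whose libraries did not enter the choice of genes. At 12 weeks 363 of the 3542 were higher in ob/ob gECs (10.2%, against 5.49% of all 18053 genes tested) and 292 were lower (8.24%, against 4.67%). At 18 weeks 280 were higher (7.91%, against 4% of all) and 204 lower (5.76%, against 2.27%). The median log2 fold change of the 3542 was -0.03 at 12 weeks and -0.04 at 18 weeks, beside -0.05 and -0.02 over all genes tested. Of the 710 genes at 8-fold, 128 were higher and 121 lower at 12 weeks (18.0% and 17.0%), and 115 were higher and 97 lower at 18 weeks (16.2% and 13.7%). The split differed on another scale, where limma on log2(TPM + 1) called 200 higher and 426 lower at 12 weeks and 151 and 247 at 18 weeks. A fit of the libraries of one age alone called 249 higher and 174 lower at 12 weeks and 375 and 326 at 18 weeks.

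Of the 4 markers, Emcn and Ehd3 were lower in ob/ob gECs at 12 weeks. Emcn averaged 2173 ± 234 TPM in ob/ob gECs and 2791 ± 468 TPM in WT gECs (SD, n = 8 each) at that age, a log2 fold change of -0.29 ± 0.07 (adjusted p = 0.0025, edgeR). Ehd3 averaged 1126 ± 171 TPM in ob/ob gECs and 1544 ± 372 TPM in WT gECs, a log2 fold change of -0.35 ± 0.12 (adjusted p = 0.049, edgeR). In the fit of that age alone neither passed (adjusted p of 0.114 and 0.272, edgeR). Flt1 and Kdr were at -0.11 ± 0.06 and -0.10 ± 0.08 and did not pass. At 18 weeks none of the 4 passed. Emcn then averaged 2377 ± 139 TPM in ob/ob gECs and 2823 ± 57.3 TPM in WT gECs (SD, n = 7 each), with a log2 fold change of -0.19 ± 0.07 (adjusted p = 0.14, edgeR; 0.0217 in the fit of that age alone).

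Genes with the largest differences from the other cell types moved both ways in ob/ob gECs. Cdh13 was at 24.0, 27.6 and 38.7 TPM (lowest, median, highest) in ob/ob gECs at 12 weeks, against 12.9, 14.5 and 20.5 TPM in WT gECs, with no overlap and a log2 fold change of 1.07 ± 0.11. At 18 weeks it was at 11.2, 24.0 and 29.8 TPM in ob/ob gECs, against 9.31, 10.5 and 14.0 TPM in WT gECs, so that the ranges overlapped. Gimap3 was lower without overlap at both ages, at 38.3, 48.6 and 67.7 TPM in ob/ob gECs, against 109, 150.2 and 160.1 TPM in WT gECs at 12 weeks (log2 fold change -1.42 ± 0.13), and with -1.27 ± 0.14 at 18 weeks. Myrip was also higher at both ages (0.93 ± 0.10 and 0.75 ± 0.10), and Lypd6, P2ry1, Mpped2 and Cd24a were lower, with log2 fold changes of -0.90 to -0.50 at 12 weeks and -0.75 to -0.52 at 18 weeks.

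No member of the pan-endothelial list was called lower in ob/ob gECs at either age. Of its 20 members 10 were higher at each age, and of 25 junction genes 15 and 13 were higher and none lower. Among all genes tested 5.49% were higher and 4.67% lower at 12 weeks, and 4% and 2.27% at 18 weeks. With limma on the TPM scale the split of the genes chosen as higher in gECs turned toward lower, as given above. These list counts were not taken with limma. Pecam1 was higher by 0.24 ± 0.08 and 0.29 ± 0.08 on the log2 scale, and Cdh5 by 0.24 ± 0.06 and 0.24 ± 0.07. Plvap, Cd93 and Sele rose more and are named here after their values were seen. Plvap was at 104, 137 and 240 TPM (lowest, median, highest) in ob/ob gECs at 12 weeks, against 11.4, 17.6 and 31.5 TPM in WT gECs, a log2 fold change of 3.05 ± 0.22. Cd93, a C-type lectin receptor of endothelium, was at 63.6 to 98.0 TPM in ob/ob gECs and 13.0 to 24.1 TPM in WT gECs (2.28 ± 0.14). Sele, which encodes the inducible adhesion molecule E-selectin, was at 219 to 690 TPM in ob/ob gECs and 47.7 to 102 TPM in WT gECs (2.51 ± 0.25). None of the 3 overlapped between ob/ob and WT at 12 weeks, and all 3 were higher at 18 weeks too (3.25 ± 0.23, 2.08 ± 0.15 and 1.97 ± 0.26).

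Other genes of the endothelial lists fell. Col15a1 was at 39.3, 77.7 and 92.1 TPM in ob/ob gECs at 12 weeks, against 137, 184 and 242 TPM in WT gECs (-1.28 ± 0.15), and it was lower at 18 weeks as well (-1.11 ± 0.16). Itga6 (-0.68 ± 0.07 and -0.54 ± 0.07) and Ednrb (-0.87 ± 0.16 and -0.88 ± 0.18) were lower at both ages, while Edn1, its ligand's gene, was higher (1.88 ± 0.18 and 1.62 ± 0.19). Summed mesangial markers were higher in ob/ob gECs than in WT gECs at 12 weeks (187 to 330 TPM, against 78.1 to 114 TPM) and overlapped at 18 weeks (142 to 297 TPM, against 90.4 to 206 TPM). Podocyte markers summed to between 1978 and 2959 TPM in ob/ob gECs at 12 weeks, against 1838 to 4918 TPM in WT gECs. The mesangial genes Pdgfrb and Itga8 were at 0.92 to 7.46 and 1.83 to 34.3 TPM in ob/ob gECs at 12 weeks, against 2.12 to 8.82 and 1.25 to 2.81 TPM in WT gECs. Gja5 was at 43.1 to 93.0 TPM in ob/ob gECs at 12 weeks, against 9.52 to 43.9 TPM in WT gECs. At 18 weeks it was at 46.9 to 148 TPM, against 39.0 to 95.1 TPM, so the ranges overlapped at both ages. The WT median of Gja5 was itself lower at 12 weeks (19.6 TPM) than at 18 weeks (50.9 TPM). Plvap and Gja5 are also high in mesangial cells, and the part of such RNA in their ob/ob levels was not tested. Of the 12 markers of other endothelial beds tested, 5 were higher in ob/ob gECs at 12 weeks, 6 at 18 weeks and none lower. These counts too were not taken with limma. The arterial marker Fbln2 was at 37.1 to 104 TPM in ob/ob gECs at 12 weeks, against 12.2 to 28.3 TPM in WT gECs. Its ranges overlapped at 18 weeks (29.5 to 120 TPM, against 12.2 to 39.4 TPM). Whether the share of such endothelium among the sorted cells changed was not tested.

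**Figure D5:**
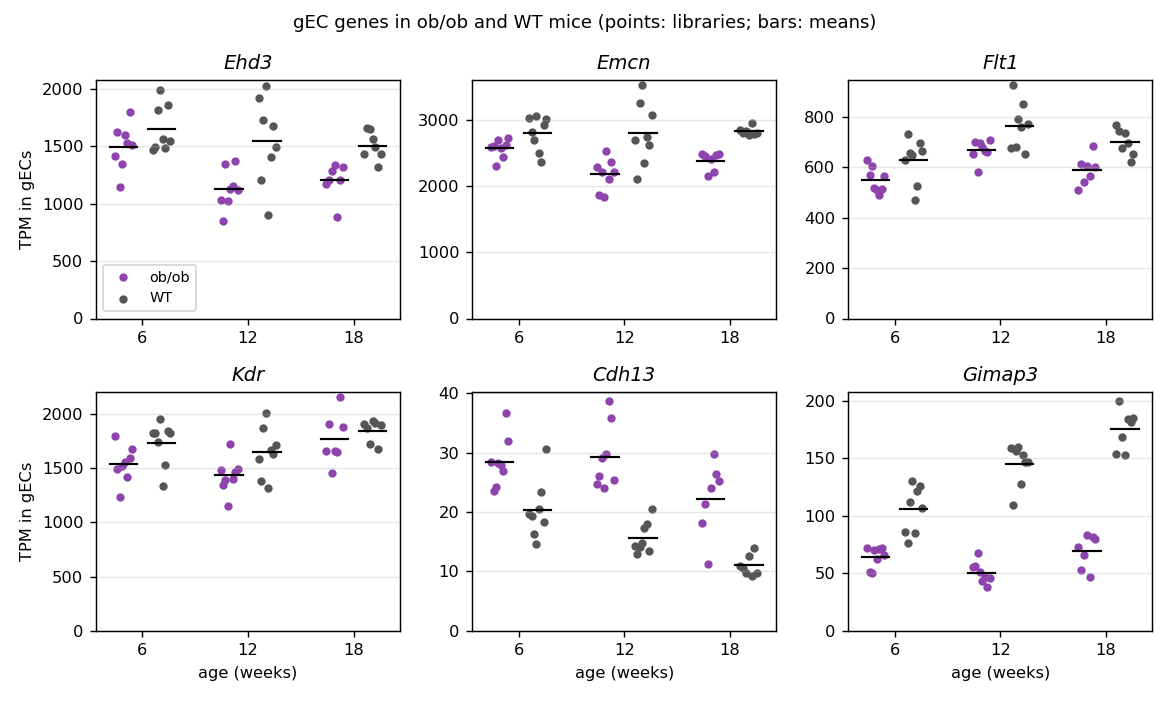
TPM (linear axis from 0) of Ehd3, Emcn, Flt1, Kdr, Cdh13 and Gimap3 in each ob/ob and WT gEC library by age in weeks, with points for libraries and bars for means. At 12 weeks Cdh13 lies at 24.0 to 38.7 TPM in ob/ob gECs and 12.9 to 20.5 TPM in WT gECs, and Gimap3 at 38.3 to 67.7 TPM in ob/ob gECs and 109 to 160.1 TPM in WT gECs.

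Between the 4 female and the 4 male WT gEC libraries of 6 weeks, 3 of 16192 genes were higher in females (0.0185%) and 5 lower (0.0309%). None of the 3542 genes passed in edgeR, 264 of them had an unadjusted p under 0.05 (783 of all genes tested), and DESeq2 called 43 genes, 17 of them among the 3542. The 8 genes were Xist, Kdm5c and Kdm6a, all X-linked, the Y-linked Ddx3y, Eif2s3y, Uty and Kdm5d, and a predicted gene, named here after the calls were seen. Within the 8 libraries the 3542 genes had a median coefficient of variation of 17.5% in TPM, beside 17.1% over all tested genes.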

How the data were processed

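RNA was sequenced from sorted cells with a stranded SMART-Seq kit, single-read. Per the methods and the submitters' processing notes, read quality was inspected by the authors in FastQC 0.11.5, and RSEM 1.3.0 with Bowtie2 2.3.3.1, at default settings that do not use strand, mapped the reads to mm10. The deposited tables hold, per library, RSEM expected counts (estimated reads per gene, not normalized) and TPM, in which the authors' run corrected for gene length and sequencing depth. The annotation release is not given in the sources used here. Of 46517 gene entries, 46005 were matched to GENCODE M21 (GRCm38) for positions, and 197 shared a symbol and kept their identifier.

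Expected counts were rounded, filtered with filterByExpr by cell type, scaled with TMM and fitted in edgeR 4.0.16 (R 4.3.3) by the quasi-likelihood test, with cell type and sex in the model for the 24 WT libraries of each age (21 at 18 weeks), genotype by age and sex for the 46 gEC libraries, and sex alone for the 8 gEC libraries. The Benjamini-Hochberg method was applied over all genes tested, two-sided, with calls at an adjusted p under 0.05, and values after ± are SE for log2 fold changes and SD for TPM. DESeq2 1.42.0 and limma 3.58.1 on log2(TPM + 1) and log2(TPM + 0.1) were alternatives, beside other scaling factors, filters, no sex term, each sex alone, the replicate number as a block and libraries left out. The fits were tested on simulated data. Figures were drawn with Python 3.11.15, pandas 2.3.3 and matplotlib 3.10.9. Promoters came from RefSeq (GRCm38.p6).

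Genes and lists were chosen with earlier results of these data known. Named genes are the 4 markers, the 20 largest smaller log2 fold changes among genes without overlap and at 10 TPM or more, the 10 most abundant genes at 8-fold, the 10 largest falls among genes at 10 TPM or more in both other cell types, up to 6 called and 6 uncalled members of each list by gEC TPM, the 2 genes on each side of a threshold, and genes of the 3542 called between the sexes. Bmp6, Cd93, Clec14a, Col4a3, Erg, F8, Fli1, Flt4, Foxc1, Nr2f2, Pdgfb, Robo4, Sele, Slc2a1 and Tie1 were named beyond these limits, after their values were seen. Genes with no symbol or a predicted symbol were counted and not named, and some further genes are not reported here. The ob/ob and WT comparison at 6 weeks shares the WT libraries that chose the genes and was not tested. The gEC libraries correlated with each other at 0.9614 to 0.9905, and no pair held identical values.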

Additional observations from a re-analysis of the deposited data

Results flagged for a closer look

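In 55 groups of 8 libraries, the gap between an extreme library and its neighbour was large for the whole range in 3, where chance gives about 1 in 20. Sigirr, the inhibitory interleukin-1 family receptor, was at 14.78 TPM in female gEC library 2, below the next lowest at 19.66 TPM and the median of 20.14 TPM. Plk2, a polo-like kinase gene, was at 919.07 TPM in male gEC library 1, below the next lowest at 1348.3 TPM and the median of 1406.37 TPM. Summed mesangial markers were at 157.99 TPM in female gEC library 4, above the next highest at 113.18 TPM and the median of 95.69 TPM.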

How the results depend on the processing

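No named gene reversed between cell types with RLE factors, DESeq2, limma on log2(TPM + 1) or the replicate number as a block. Under the other alternatives single genes were not followed in these contrasts. Which direction held more genes did change. Against podocytes (6181 higher, 6420 lower) it turned with RLE factors, total counts only, DESeq2 and no filter, as given above, with limma on log2(TPM + 1) (6296 and 5806) and log2(TPM + 0.1) (6342 and 5754), with females only (5872 and 5571) and narrowly with the 2 cell types alone (6036 and 6023). Against mesangial cells (6272 higher, 5290 lower) it turned with females only (5022 and 5176) and with the 2 cell types alone (5296 and 5775). The ob/ob split turned with limma on log2(TPM + 1), to 200 higher and 426 lower at 12 weeks and 151 and 247 at 18 weeks. The count of genes higher in gECs than in both other cell types lay between 2755 (males only) and 4109 (no filter on low counts), and that at 8-fold between 366 (limma on log2(TPM + 1)) and 1181 (no filter), around 710. With upper quartile factors, which moved the median log2 fold change over podocytes to -0.12, 3278 of the 3542 genes remained, and with DESeq2 3533. Of 1016 results for single genes, DESeq2 lost 10 calls and added 12, and limma lost 19 and added 13. The ob/ob count at 12 weeks was 423 with the libraries of that age alone. The sex comparison gave 43 genes with DESeq2, and in place of 8 it gave 3, 4 or 5 when any library but female 3 was left out and 6 without that library, with 3 libraries then left in 1 sex. Without male gEC libraries 1 and 2, chosen after seeing the data, 2 immune markers were higher in gECs than in both in place of 1. The causes of these shifts were not tested. Replicate numbers recur across cell types. Of 24 same-numbered pairs 18 correlated above 0.1 (-0.0316 to 0.387, median 0.2), and 7 of 24 libraries lay closest to their own number in both other cell types. Since not every pair exceeded 0.1 and the labels name no shared mouse, the numbers were not used as pairs, and whether they mark one is not known. With them as a replicate block, 3617 genes were higher and 3039 lower than in both, 11757 differed from mesangial cells and 12745 from podocytes, and 2858 and 3138 of the genes repeated at 12 and 18 weeks. Depth was lower at 18 weeks.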
